A study of Rattus norvegicus with 35 samples.

Results

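Synaptic vesicle and SNARE genes were followed in the adult rat retina after injury of the optic nerve. The group comprised 54 of the 14217 genes measured, chosen by symbol: the synaptotagmins (Syt), syntaxins (Stx), vesicle-associated membrane proteins (Vamp), Snap proteins, synapsins (Syn), SV2 proteins, syntaxin-binding proteins (Stxbp), complexins (Cplx), Syp and Synpr. The choice of genes by symbol uses no expression value, while that of the probe set does. Each gene was represented by its probe set (several short probes for 1 transcript on an Affymetrix RAE230.2 array) with the highest mean over all arrays.

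The 35 arrays comprised 15 after intraorbital nerve transection (IONT), 15 after intraorbital nerve crush (IONC) and 5 of naive retinas. For IONT there were 3 arrays per time point at 12 h, at 48 h and at 7 d, and 2 per time point at 24 h, 3 d and 15 d. For IONC there were 3 at each of 12 and 24 h, 48 h, and 3 and 7 d. Both lesions were made on the left optic nerve of adult rats with no genetic modification, the transection close to the optic disc and the crush farther from it. Naive rats were not operated on, so surgery of the orbit and injury of the nerve cannot be told apart in any comparison with them. Each array carried RNA from 4 retinas of different animals, and the spread between arrays is therefore that between pools of whole retinas.

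Neurons release transmitter when a vesicle SNARE, a Vamp protein, winds together with a syntaxin and a Snap protein of the plasma membrane and pulls the membranes into contact. Synaptotagmins sense the calcium that triggers the event, complexins hold and then assist the SNARE bundle, syntaxin-binding proteins guide its assembly, and synapsins, SV2 proteins and synaptophysin sit on the vesicle itself. In the retina, photoreceptors and bipolar cells release from ribbon synapses, which use their own forms of some of these proteins (Stx3, Cplx3), while amacrine cells have conventional synapses. Retinal ganglion cells (RGCs), whose axons form the optic nerve, make their output synapses in the brain, outside the tissue measured here.

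Values are log2 signals. Naive arrays A to C served IONT at 12 h, 48 h and 7 d and all IONC groups, and naive arrays D and E served IONT at 24 h, 3 d and 15 d. The 8 arrays of the second set stood apart from the other 27: the log2 signal of the 3′ minus that of the 5′ β-actin control probe set, a measure of how complete the labelled RNA was, lay between 2.61 and 3.65, against 1.53 to 1.93. IONC 12 h replicate 2 also stood apart, with a median correlation of 0.871 with the other arrays, against 0.962 to 0.992 for each other array. The median log2 signal of the 54 members was 5.99 on it and 7.17 to 7.97 on each of the other 34. Against the mean of the other 2 IONC 12 h arrays it was lower by more than 0.5 in 33 members and higher in 8. Since all groups share 1 estimate of the spread, this array also widened the error of every comparison. Calls are therefore given with all 35 arrays and with the 34 that leave it out, a choice made after seeing the data, and other values come from the fit named beside them.

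Few members were called against naive. A gene was called changed at a limma p-value, adjusted over all probe sets, under 0.01 if the log odds of a change (B) were above 0 and the change reached 1.2-fold. With 35 arrays, 3 members were called in any of 11 comparisons with naive, Cplx3, Snap25 and Stx11, each at 12 h after IONC. With 34 arrays, 6 were called, Cplx1, Cplx3, Snap23, Snap25, Stx11 and Vamp1, and 48 of the 54 in none. These 6 made 10 calls among 594 pairs of a member and a comparison. The share of all genes called in a single comparison ran from 2.24% to 7% with 34 arrays and from 0.394% to 5.22% with 35. No total over the 11 comparisons was made for all genes.

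After IONT with 34 arrays, Cplx3 was the member called at 12 h (3.78% of all genes called), Snap23 at 48 h (7% of all genes), Cplx1 and Vamp1 at 7 d (6.02%), and Cplx1 and Snap25 at 15 d (4.51%). A single member makes 1.85% and 2 members 3.7% of the 54, so each of these counts lay below the share of all genes. That difference was not tested. None was called at 24 h (2.24% of all genes) or 3 d (3.32%) by limma, where 11 and 10 members (20.4% and 18.5%) had an unadjusted p under 0.05, against 18.4% and 21.8% of all genes. With 35 arrays none was called after IONT, against shares of all genes of 1.29% (12 h), 0.499% (24 h), 2.64% (48 h), 0.795% (3 d), 1.2% (7 d) and 1.81% (15 d). Between 1.85% and 14.8% of the members, or 1 to 8, had an unadjusted p under 0.05 there, against 8.82% to 13.7% of all genes.

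After IONC with 34 arrays, Stx11 was called at 12 h (6.63% of all genes called), Snap23 at 24 h (4.72%), no member at 48 h (6.18%) or 3 d (2.87%), and Cplx1 and Vamp1 at 7 d (2.98%). The 2 members at 7 d, 3.7% of the 54, lay slightly above the share of all genes, and the other counts lay below it. At 48 h, 22 members (40.7%) had an unadjusted p under 0.05, against 28.2% of all genes, and at 3 d 12 members (22.2%), against 37.4%. With 35 arrays the 3 members called at 12 h made 5.56% of the 54, against 5.22% of all genes. None was called at the other time points, where the share of all genes called was 1.04% (24 h), 1.54% (48 h), 0.394% (3 d) and 0.689% (7 d), and 0 to 8 members (up to 14.8%) had an unadjusted p under 0.05, against 8.22% to 14.5% of all genes.

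The median change of the members lay between -0.02 and 0.05 in the 11 comparisons with 34 arrays, and that of all genes between -0.01 and 0.05. The array left out moved 1 of these medians: at 12 h after IONC with 35 arrays it was -0.29 for the members, against -0.08 for all genes. The members' median absolute change ranged from 0.10 at 24 h after IONC to 0.27 at 15 d after IONT, against 0.13 and 0.18 over all genes (34 arrays).

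**Figure D1:**
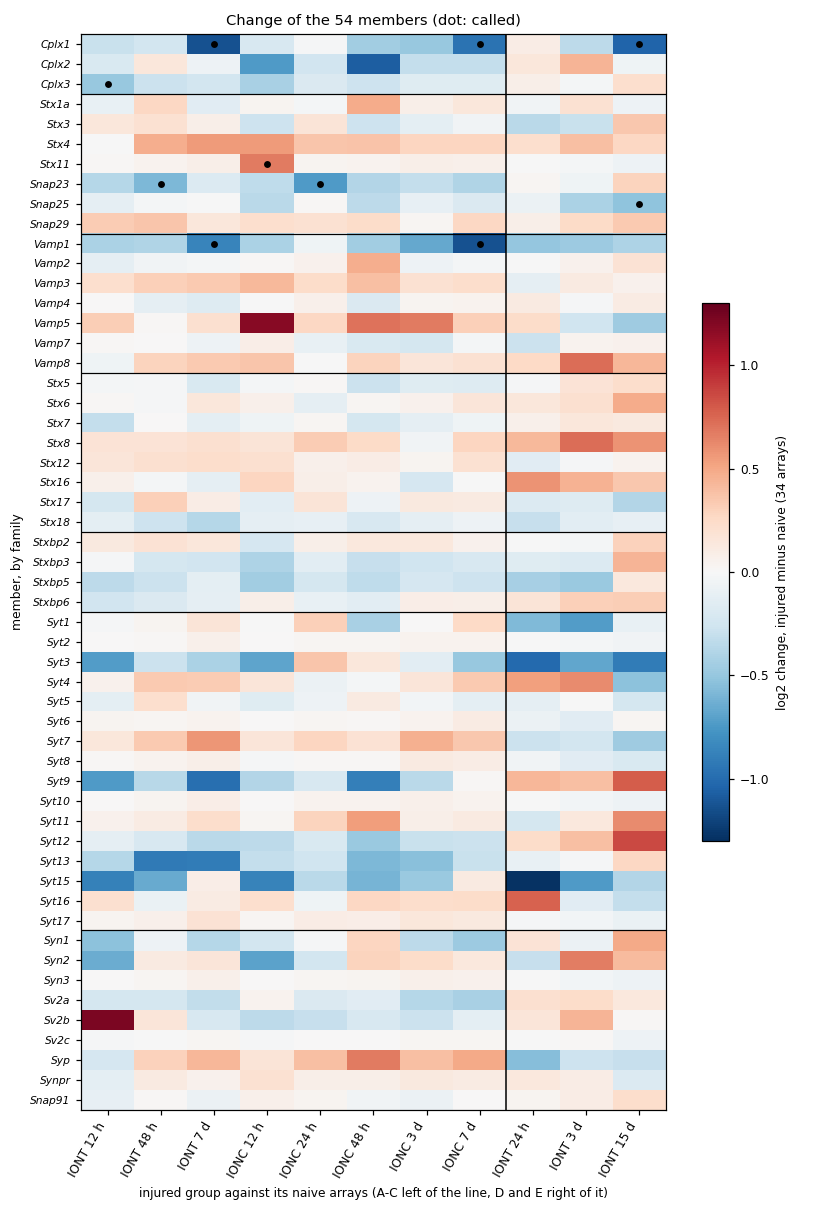
Log2 change of each of the 54 members (rows, grouped by family: complexins, plasma membrane SNAREs, vesicle SNAREs, endosomal, Golgi and ER syntaxins, syntaxin-binding proteins, synaptotagmins, and synapsins, SV2 and other vesicle proteins) in the 11 injured groups against their naive arrays, with IONC 12 h replicate 2 left out. Dots mark the 10 calls, 9 of them decreases.

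Among the complexins, Cplx1, which clamps and then promotes SNARE-driven fusion, was lower late after both lesions. Its log2 signal was 8.43, 8.31 and 8.63 at 7 d after IONT, against 9.66, 9.49 and 9.62 in naive A to C. At 7 d after IONC it was 8.56, 8.60 and 8.74. Every array at 7 d lay below every naive array. With 34 arrays the change was -1.13 ± 0.18 (SE, 0.455-fold, adjusted p = 3.2e-04) at 7 d after IONT and -0.96 ± 0.18 (0.514-fold, adjusted p = 2.6e-03) at 7 d after IONC. With 35 arrays the same differences had an SE of 0.34 and adjusted p-values of 0.094 and 0.28, and neither was called. With 34 arrays, leaving out naive A, naive C or IONC 7 d replicate 1 or 2 ended the call at 7 d after IONC (adjusted p = 0.012 to 0.016), while no array that was left out ended that at 7 d after IONT.

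At 15 d after IONT, in the other set of arrays, Cplx1 stood at 8.83 and 8.83, against 9.95 and 9.79 in naive D and E. The change was -1.04 ± 0.23 (SE, adjusted p = 4.2e-03 with 34 arrays and 0.24 with 35). This call ended without any 1 of the 4 arrays involved, with adjusted p-values from 0.015 (without naive E) to 0.051 (without naive D). Earlier values were closer to naive and none was called. Cplx1 was 9.15, 9.47 and 9.27 at 12 h after IONT, all just below naive A to C, and 8.94, 9.70 and 9.40 at 48 h after IONT, which overlapped them. At 24 h it was 9.96 and 9.97 after IONT and 9.59, 9.60 and 9.53 after IONC, and at 48 h after IONC it was 8.65, 9.56 and 9.22. At 3 d after IONC its values were 9.15, 9.23 and 8.91, all below naive A to C, with an adjusted p of 0.052. The other probe set of Cplx1, with a mean log2 signal of 4.53, differed by -0.81 at 7 d after IONT (adjusted p = 0.019), -0.29 at 7 d after IONC and -0.32 at 15 d after IONT and was not called.

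RGC markers were lower in the same groups. Of 10 measured, 8 were called lower at 7 d after IONT, at 7 d after IONC and at 15 d after IONT, in each fit. Their summed level (log2 of the summed linear signal) was 10.94 to 11.22 at 7 d after IONT and 11.28 to 11.58 at 7 d after IONC, against 13.57 to 13.61 in naive A to C. It was 9.77 to 10.14 at 15 d after IONT, against 13.26 to 13.36 in naive D and E. With 34 arrays, 7 of the 10 markers were also called lower at 48 h and at 3 d after IONC, and 5 at 48 h and at 3 d after IONT. Cplx1 was called in none of these earlier groups. Whether fewer RGCs or less RNA per RGC lies behind a lower signal cannot be told apart in whole retina, and the part of RGC loss in the values of Cplx1 and the other members was not tested.

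**Figure D2:**
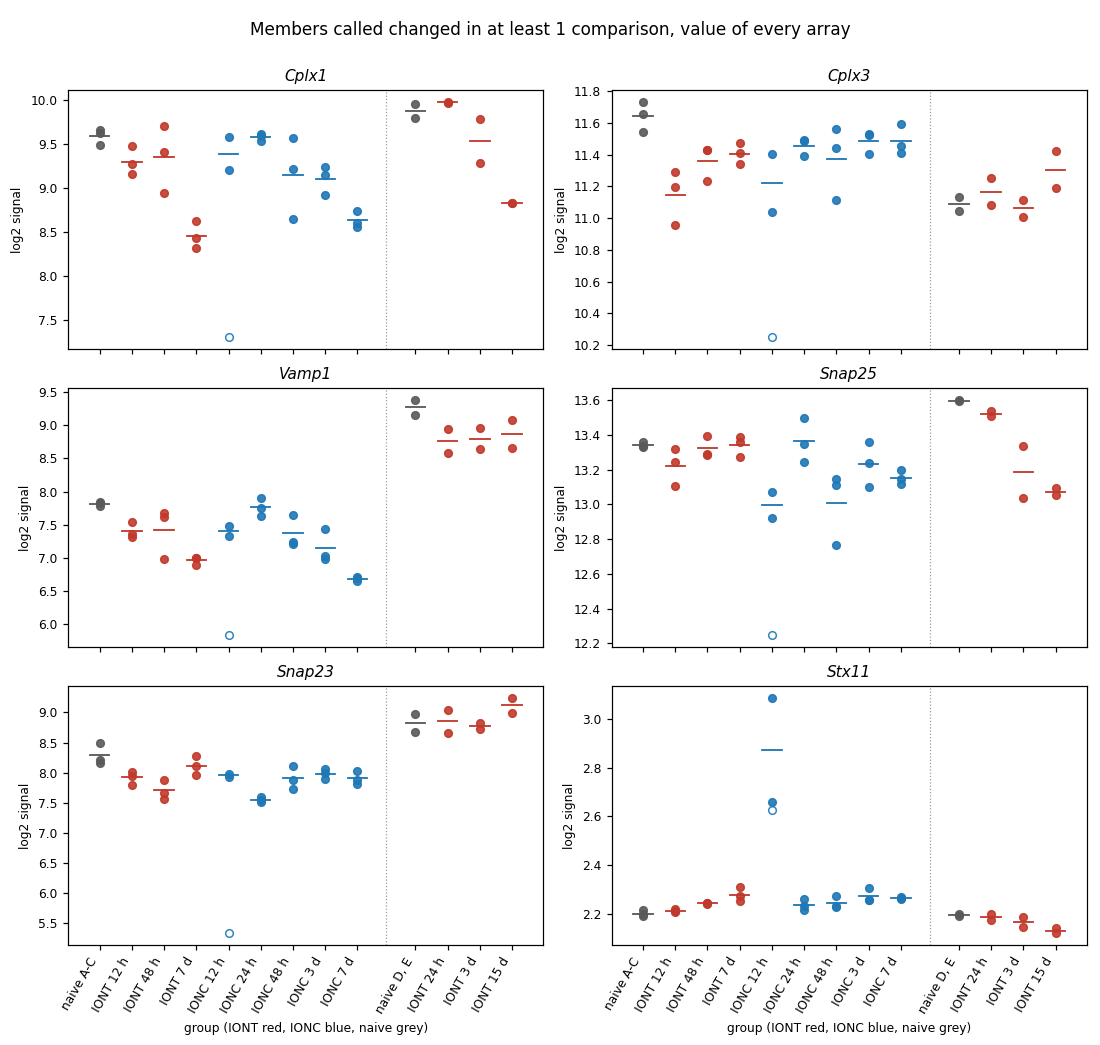
Log2 signal (y axis) of the 6 members called in at least 1 comparison, for every array by group; bars are group means and the open circle is IONC 12 h replicate 2, which the means leave out. The dotted line parts the groups set against naive A to C from those set against naive D and E. At 7 d Cplx1 and Vamp1 lie below all naive arrays of their set after both lesions, and the 3 IONC 12 h values of Stx11 lie above those of every other group. Other members at the floor of the scale also read higher on IONC 12 h replicate 2.

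Cplx3, the complexin of ribbon synapses, was lower at 12 h. It read 10.96, 11.20 and 11.29 at 12 h after IONT, against 11.65, 11.54 and 11.73 in naive A to C, with no overlap. The change was -0.49 ± 0.11 (SE, 0.71-fold) and was called with 34 arrays (adjusted p = 5.4e-03) but not with 35 (adjusted p = 0.23). That call ended without naive A (adjusted p = 0.023), naive C (0.038) or IONT 12 h replicate 1 (0.053) or 2 (0.014). At 12 h after IONC its values were 11.04, 10.25 and 11.40, the lowest from replicate 2. With all 3 arrays it fell by 0.74 (adjusted p = 6.2e-03, but 0.016 to 0.034 without 1 of naive A to C), and with replicates 1 and 3 alone the difference was -0.42 ± 0.12 (adjusted p = 0.026), which was not called. Later values lay nearer to naive, 11.47, 11.41 and 11.34 at 7 d after IONT and 11.41, 11.59 and 11.46 at 7 d after IONC.

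Markers of rods and cones were lower at 12 h as well. With 34 arrays 6 of 9 were called lower at 12 h after IONC and 4 of 9 at 12 h after IONT. Their summed level was 15.70 to 15.95 at 12 h after IONC and 16.04 to 16.20 at 12 h after IONT, against 16.45 to 16.47 in naive A to C. The range at 12 h after IONC includes replicate 2. At 48 h after IONT, where Cplx3 was not called (11.23, 11.43 and 11.43), 6 of 9 were called lower and the sum was 15.94 to 16.07. Of 5 bipolar cell markers, 1 (Pcp2) was called lower at 12 h and at 48 h after IONT, and none at 12 h after IONC, with 34 arrays. Their summed level was 12.28 to 12.41 at 12 h after IONT, against 12.96 to 13.16 in naive A to C. It was 12.27 to 12.63 at 48 h after IONT and 11.91 to 12.70 at 12 h after IONC, replicate 2 included. The part of either list of markers in the values of Cplx3 was not tested. Cplx2, a close relative of Cplx1, was not called in any comparison. Its farthest difference from naive was -1.07 at 48 h after IONC (4.05, 5.13 and 5.46, against 6.06, 5.68 and 6.11 in naive A to C, adjusted p = 0.070 with 34 arrays). Its difference of IONC minus IONT at 48 h was -1.22 with 34 arrays, which was not called either.

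Of the plasma membrane SNAREs, Snap25, the partner of syntaxin at nearly all neuronal synapses, had a mean log2 signal of 13.2. At 15 d after IONT it read 13.05 and 13.09, against 13.59 and 13.60 in naive D and E. The change of -0.52 ± 0.11 (SE, 0.696-fold) was called with 34 arrays (adjusted p = 2.8e-03) and not with 35 (adjusted p = 0.096). It ended without any 1 of the 4 arrays, with adjusted p-values from 0.015 (without IONT 15 d replicate 2) to 0.024 (without naive D). Signals of lens crystallins also differed between these groups, with 5 of 5 called lower at 15 d after IONT and a summed level of 14.03 to 14.16, against 15.88 to 16.29 in naive D and E. Their part in the result was not tested.

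At 7 d after IONT, in the other set, Snap25 read 13.27, 13.36 and 13.39, against 13.36, 13.34 and 13.33 in naive A to C, and the groups overlapped. The 95% interval of that difference ran from -0.19 to 0.18 with 34 arrays. At 12 h after IONC its values were 12.92, 12.25 and 13.07, again lowest in replicate 2. It fell by 0.60 with all 3 arrays (adjusted p = 6.3e-03, but 0.023 to 0.025 without 1 of naive A to C), and the difference without replicate 2 was -0.35 ± 0.10 (adjusted p = 0.027), not called. At 48 h after IONC, values of 12.76, 13.11 and 13.14 gave -0.34 ± 0.09 (adjusted p = 0.015 with 34 arrays), which was not called either.

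Snap23, the widely expressed counterpart of Snap25, was lower at 24 h after IONC. Its values were 7.59, 7.51 and 7.54, against 8.50, 8.21 and 8.16 in naive A to C. The change of -0.74 ± 0.12 (SE, 0.598-fold) was called with 34 arrays (adjusted p = 3.5e-04). At 48 h after IONT it read 7.89, 7.67 and 7.56 and the change was -0.58 ± 0.12 (0.667-fold, adjusted p = 2.1e-03), which ended without naive A (adjusted p = 0.020) or IONT 48 h replicate 2 (0.011) or 3 (0.018). With 35 arrays neither was called (adjusted p = 0.62 and 0.75, SE 0.38). Snap23 was 5.34 on IONC 12 h replicate 2 and 7.98 and 7.93 on the other 2 arrays of that group. A second probe set of Snap23 differed by -0.91 at 24 h after IONC and -1.11 at 48 h after IONT, and was called in both with 34 arrays. In the second set of arrays Snap23 read 8.99 and 9.24 at 15 d after IONT, against 8.98 and 8.68 in naive D and E, and was not called.

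Stx11, a syntaxin known from granule release by immune cells, was the member called higher. It read 2.66, 2.63 and 3.08 at 12 h after IONC, against 2.22, 2.19 and 2.20 in naive A to C. All 3 arrays lay above every naive array. The difference was 0.59 ± 0.07 (SE, adjusted p = 6.1e-06) with 35 arrays and 0.67 ± 0.06 (adjusted p = 2.7e-07) with 34. The naive values lay at the floor of the scale, where Syt2, Syt10, Sv2c and Syn3 also read 2.13 to 2.22, so that the naive level has only an upper bound and no fold is given. On IONC 12 h replicate 2 those members read 2.36, 2.55, 2.49 and 2.78. The 2.63 of Stx11 on that array cannot be told from a raised floor. The fit with 34 arrays rests on replicates 1 and 3 of that group. In all, 15 of the 54 members had a mean log2 signal under 4. At 12 h after IONT Stx11 stayed at 2.21, 2.22 and 2.21, and in the other IONC groups between 2.22 and 2.31. Of 7 markers of microglia and macrophages, 2 were called higher at 12 h after IONC with 34 arrays (Aif1 and Csf1r). Their summed level was 7.44 to 8.78, against 6.48 to 6.74 in naive A to C, and 3 of the 7 had a mean under 4 at that time. Both that range and that count include IONC 12 h replicate 2. At 48 h and 3 d after IONC, 3 of 7 were called higher, with summed levels of 9.12 to 9.27 and 8.26 to 10.19, while Stx11 read no higher than 2.31 there. Their part in the signal of Stx11 was not tested.

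The syntaxins of neuronal release were not called. Stx3, the syntaxin of ribbon synapses, read 8.59, 8.82 and 8.85 at 7 d after IONT and 8.55, 8.62 and 8.74 at 7 d after IONC, against 8.63, 8.76 and 8.65 in naive A to C. Stx1a, the syntaxin of conventional synapses, had a low signal of 3.74, 3.34 and 3.50 at 7 d after IONT, against 3.70, 3.67 and 3.67. Its value of 6.02 on IONC 12 h replicate 2 stood far above the 4.01 and 3.42 of the other 2 arrays, opposite to most members on that array. Low signals were raised there in general. Against the mean of the other 2 arrays, the median difference was 0.32 for members with a mean under 4 and -1.18 for those over 8. Stx4, a syntaxin of the plasma membrane in most cells, was looked at after its values were seen. It was 8.69, 8.30 and 8.57 at 7 d after IONT, against 7.96, 8.00 and 7.95 in naive A to C, a difference of 0.55 (adjusted p = 0.015 with 34 arrays and 0.74 with 35) that was not called.

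Among vesicle SNAREs, Vamp1 (synaptobrevin 1) was called lower at 7 d after both lesions with 34 arrays. Vamp2, the main Vamp protein of brain synapses, was not called. Vamp1 read 6.65, 6.69 and 6.72 at 7 d after IONC, against 7.84, 7.78 and 7.83 in naive A to C. At 7 d after IONT it was 6.99, 6.89 and 7.01. No array of either lesion at 7 d reached the naive range. The change was -1.13 ± 0.16 (SE, 0.457-fold, adjusted p = 1.3e-04) at 7 d after IONC and -0.85 ± 0.16 (0.553-fold, adjusted p = 1.2e-03) at 7 d after IONT with 34 arrays. With 35 arrays the adjusted p-values were 0.033 and 0.12, and neither was called.

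A second probe set of Vamp1, with a mean log2 signal of 4.33, fell by 1.91 at 7 d after each lesion and was called in both with 34 arrays, and after IONT with 35 as well. Another probe set, with a mean of 2.20, differed by 0.05 and 0.04. Earlier after IONC the first probe set read 7.76, 7.64 and 7.91 at 24 h, on both sides of the naive range. It read 7.20, 7.65 and 7.25 at 48 h, a difference of -0.45, and 6.98, 7.43 and 7.03 at 3 d, a difference of -0.67 (adjusted p = 0.013, not called). Both of these groups lay below naive A to C. After IONT it read 7.31, 7.53 and 7.36 at 12 h and 6.98, 7.68 and 7.61 at 48 h. These values also lay below naive A to C, and neither group was called. In the second set it read 8.58 and 8.95 at 24 h and 8.64 and 8.95 at 3 d after IONT. Those lay below naive D and E and were not called. At 15 d after IONT it read 9.08 and 8.66, against 9.16 and 9.38 in naive D and E, a difference of -0.40 with a 95% interval from -0.81 to 0.01.

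Vamp2 differed little where Vamp1 was called. It read 10.89, 10.95 and 10.95 at 7 d after IONC and 10.78, 11.06 and 10.95 at 7 d after IONT, against 10.99, 10.85 and 11.05 in naive A to C. The 95% interval of its difference ran from -0.42 to 0.36 at both. The remaining vesicle SNAREs serve endosomes, lysosomes, the Golgi or cells outside the nervous system, and none was called. Vamp3, of recycling endosomes, was singled out after its values were seen: it read 9.48, 9.25 and 9.44 at 7 d after IONT, against 9.02, 9.05 and 9.09 in naive A to C, a difference of 0.34 (adjusted p = 0.032 with 34 arrays).

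**Figure D3:**
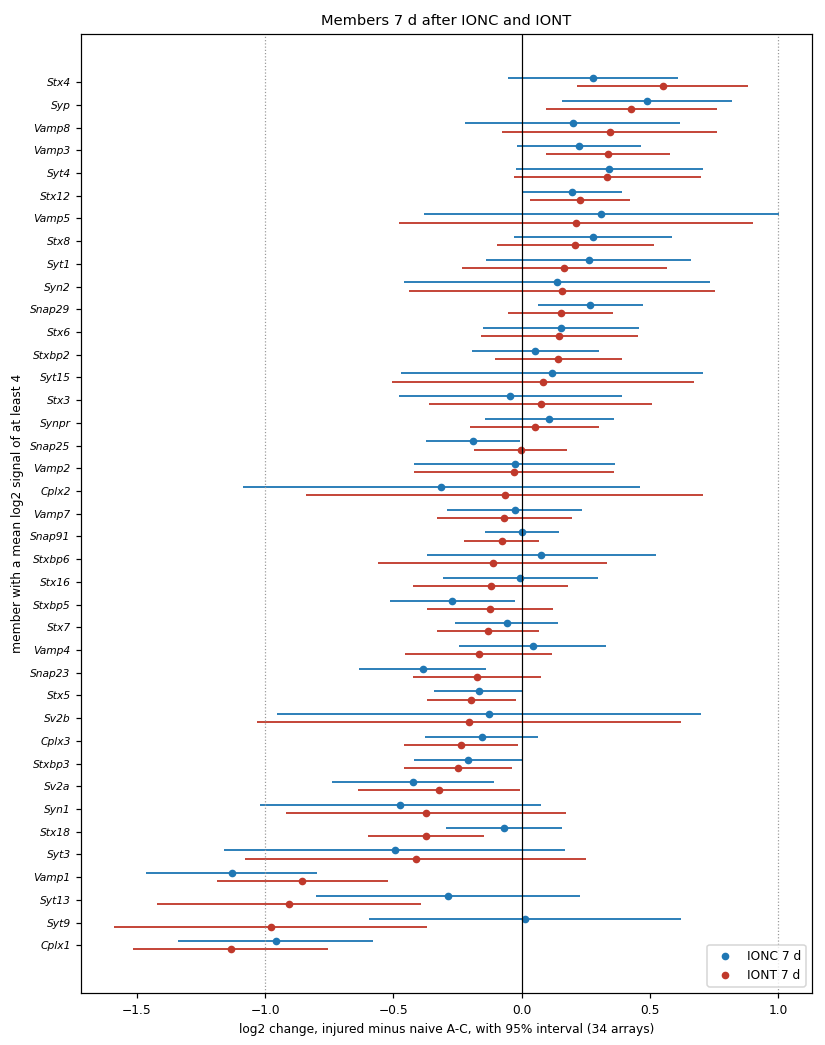
Log2 change at 7 d against naive A to C (x axis, with 95% intervals from the fit to 34 arrays) of the 39 members with a mean log2 signal of at least 4, after IONC (blue) and IONT (red). The intervals of Cplx1 and Vamp1 lie wholly below 0 after both lesions and that of Syp wholly above it, and most others lie between the dotted lines at -1 and 1. Of all 54 members, 19 (35.2%) after IONT and 13 (24.1%) after IONC had an unadjusted limma p under 0.05 at 7 d. The shares of all genes were 40.6% and 33%.

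None of the 16 synaptotagmins was called in any comparison. Syt1, the fast calcium sensor of release, read 10.40, 10.42 and 10.68 at 7 d after IONT and 10.58, 10.59 and 10.62 at 7 d after IONC, against 10.24, 10.49 and 10.28 in naive A to C. At 3 d after IONT it was 9.36 and 9.65, against 10.30 and 10.17 in naive D and E, a difference of -0.73 (adjusted p = 0.063 with 34 arrays). Many synaptotagmin probe sets gave little signal: Syt2, Syt5, Syt6, Syt7, Syt8, Syt10, Syt11, Syt12, Syt16 and Syt17 had means under 4.

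Some synaptotagmins came near the threshold, and these were picked after their values were seen. Syt13, which binds no calcium, read 4.26, 4.85 and 4.62 at 48 h after IONT and 4.68, 4.38 and 4.73 at 7 d after IONT, against 5.44, 5.51 and 5.56 in naive A to C. Those differences were -0.92 and -0.91, with adjusted p-values of 0.017 and 0.011 with 34 arrays. At 7 d after IONC it read 5.50, 5.04 and 5.11, which overlapped naive. Syt12 was 3.16 and 3.14 at 15 d after IONT, against 2.18 and 2.41 in naive D and E, with an adjusted p of 7.7e-03 with 34 arrays but a B of -0.04, just short of a call.

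The proteins of the vesicle itself were also uncalled. Synaptophysin (Syp), an abundant protein of synaptic vesicles, read 11.02, 11.04 and 11.01 at 7 d after IONC and 10.80, 11.05 and 11.03 at 7 d after IONT, against 10.59, 10.41 and 10.61 in naive A to C. Both groups lay above naive, by 0.49 and 0.43 (adjusted p = 0.049 and 0.043 with 34 arrays). At 48 h after IONC, values of 11.19, 11.65 and 10.77 gave a difference of 0.67 (adjusted p = 7.8e-03, B = -0.05), and in the second set of arrays Syp at 24 h after IONT was 10.89 and 10.85, against 11.49 and 11.36 in naive D and E. Syn1, the synapsin that tethers vesicles to the cytoskeleton, read 7.79, 7.68 and 7.75 at 7 d after IONT, against 8.21, 8.02 and 8.10, and 8.44 and 8.36 at 15 d after IONT, against 7.93 and 7.90. The difference was thus -0.37 in one set of arrays and 0.49 in the other, and neither was called. Sv2a, a glycoprotein of vesicles in most neurons, was 8.95, 8.56 and 8.43 at 7 d after IONC, against 9.11, 8.99 and 9.10 in naive A to C, a difference of -0.42 (adjusted p = 0.061 with 34 arrays).

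**Figure D4:**
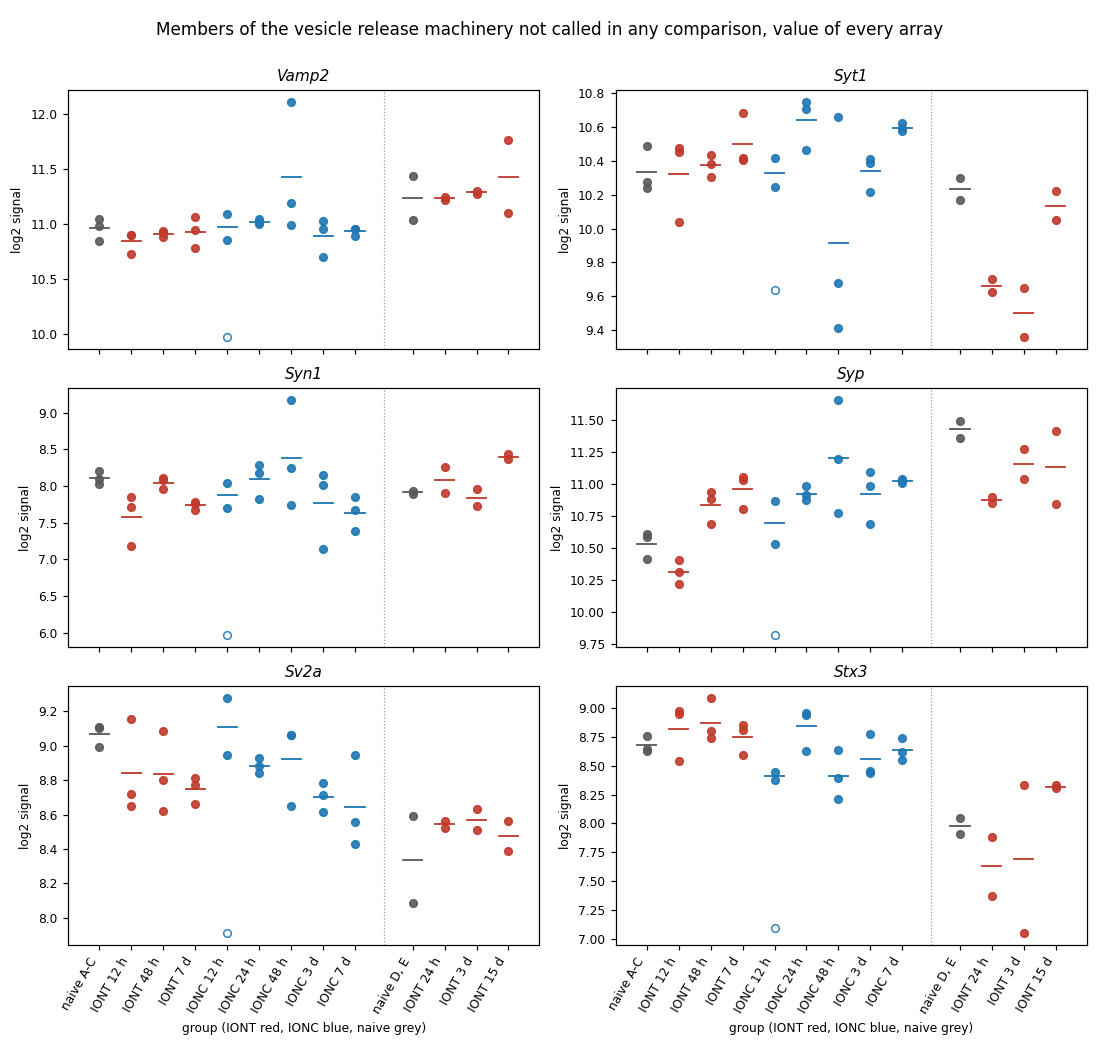
Log2 signal (y axis) of 6 members with core parts in vesicle release, none called in any comparison, for every array by group; bars are group means without IONC 12 h replicate 2, which is the open circle. At 7 d Vamp2, Syt1 and Stx3 overlap or lie above their naive arrays, while the naive arrays of the 2 sets differ from each other in Syp, Sv2a and Stx3.

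Sv2b, the SV2 form of photoreceptor terminals, was the member with the widest scatter at 12 h after IONT (SD 1.16 over 3 arrays), and was picked for that after its values were seen. It read 12.80, 11.50 and 13.81, against 11.35, 11.47 and 11.63 in naive A to C, so replicate 2 lay within the naive range and the other 2 arrays above it. The difference of 1.22 had a 95% interval from 0.40 to 2.05 and was not called (adjusted p = 0.084 with 34 arrays). A second probe set of Sv2b, with a mean of 11.2, differed by -0.12 at 12 h after IONT and was called in no comparison.

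The other families held no call. The 8 endosomal, Golgi and ER syntaxins had median changes between -0.08 and 0.18 in the 11 comparisons, and the 4 syntaxin-binding proteins between -0.31 and 0.31 (34 arrays). Stx8, a syntaxin of late endosomes, had the widest difference of the syntaxins of inner membranes, 0.72 at 3 d after IONT (8.16 and 8.80, against 7.81 and 7.70 in naive D and E, adjusted p = 0.016). Stxbp3 had 9.70, 8.49 and 9.64 at 12 h after IONC, against 9.98, 10.20 and 10.02 in naive A to C. Its adjusted p of 9.4e-03 with 35 arrays came with a B of -0.15, and without replicate 2 it was 0.027. Snap91 carries a Snap symbol but is a clathrin adaptor of vesicle retrieval, and its changes ranged from -0.10 to 0.23 with 34 arrays and from -0.20 to 0.23 with 35.

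Intervals show how far these negative results reach. With 34 arrays the 95% interval of the change lay within -1 and 1 for 43 to 52 of the 54 members, depending on the comparison, and with 35 arrays for 30 to 45. With 34 arrays the median half-width was 0.31 for groups of 3 arrays, 0.35 for IONC at 12 h and 0.38 for the IONT groups of 2. With 35 it was 0.47 for groups of 3 and 0.58 for groups of 2.

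Over the 5 IONC time points with 34 arrays, Snap23 (-0.43 ± 0.09, SE, adjusted p = 3.2e-03) and Vamp1 (-0.54 ± 0.13, adjusted p = 5.2e-03) were called lower, 3.7% of the members against 7.56% of all genes. The call of Snap23 ended without naive A (adjusted p = 0.058) or B (0.012), and that of Vamp1 ended without any 1 of 19 arrays, with adjusted p-values of 0.034 without naive A, 0.025 without naive B and 0.034 without naive C, and with a B not above 0 for the other 16. Cyclic loess and a limit of 1.5-fold ended both. With 35 arrays no member was called, against 2.67% of all genes, and 10 (18.5%) had an unadjusted p under 0.05, against 16.7% of all genes. Over IONT at 12 h, 48 h and 7 d no member was called in either fit (6.06% of all genes with 34 arrays, 2.1% with 35). An unadjusted p under 0.05 was seen in 16 (29.6%) and 4 (7.41%) members, against 30.2% and 12.2% of all genes. The same held for IONT at 24 h, 3 d and 15 d (3.75% and 1.08% of all genes), with 14 (25.9%) and 7 (13%) members, against 22.5% and 11% of all genes.

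The IONT averages share no array, so the members may be set side by side. Across the 54 genes, which are not independent replicates, their changes correlated with r = 0.21 (Spearman rho = 0.08), and 33 of the 54 had opposite signs. Over all 14217 genes r was 0.39 (rho = 0.20) and 7436 had opposite signs. For 7 d and 15 d after IONT, r was 0.01 and rho -0.10 over the members, against 0.05 and -0.17 over all genes, and Cplx1 was the member lower by more than 0.5 in both. For Vamp1 the differences were between -0.85 and -0.40 at all 6 IONT times, past the threshold at 7 d.

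The naive arrays themselves differed between sets. Of the members, 8 (14.8%) differed by more than 1 between naive D and E and naive A to C, against 7.35% of all genes. Sv2b read 14.21 and 13.75 in naive D and E, against 11.35, 11.47 and 11.63 in naive A to C. Cplx2 read 2.55 and 2.98, against 6.06, 5.68 and 6.11. A member's level in 1 set therefore cannot be compared with its level in the other, and the reason for the gap was not tested.

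**Figure D5:**
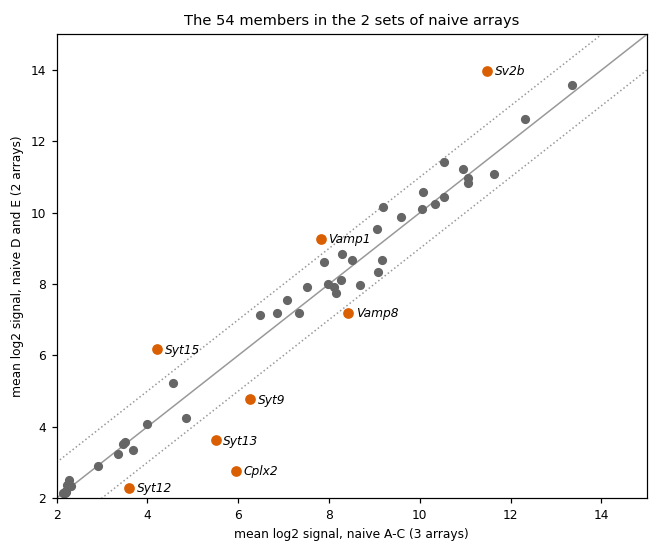
Mean log2 signal of the 54 members in naive D and E (y axis, 2 arrays) against naive A to C (x axis, 3 arrays). The solid line marks equality and the dotted lines a difference of 1; the 8 named members in orange lie outside, from Cplx2 (-3.18) to Sv2b (2.50).

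Set directly against each other, the lesions differed in 1 member that passed the test. Stx11 was higher at 12 h after IONC (2.66, 2.63 and 3.08) than at 12 h after IONT (2.21, 2.22 and 2.21), by 0.58 ± 0.07 (SE, adjusted p = 5.6e-05) with 35 arrays and 0.66 ± 0.06 (adjusted p = 1.4e-06) with 34. The 2.63 came from replicate 2, on which other members at the floor also read higher. That member is 1.85% of the 54, against 1.62% of all genes called with 35 arrays and 1.35% with 34. At 48 h (0.148% and 0.717% of all genes) and at 7 d (0.0563% and 0.309%) no member was called in either fit, with 4 (7.41%) and 2 (3.7%) members at an unadjusted p under 0.05 with 35 arrays, against 6.3% and 3.64% of all genes, and 9 (16.7%) and 4 (7.41%) with 34, against 14.4% and 10.6%. For Cplx1 at 7 d the difference of IONC minus IONT was 0.18, with a 95% interval from -0.21 to 0.56, and for Vamp1 -0.28, from -0.61 to 0.06. Sv2b had the widest difference at 12 h, 10.53, 10.47 and 11.75 after IONC and 12.80, 11.50 and 13.81 after IONT, which was not called (adjusted p = 0.011 with 35 arrays and 0.064 with 34). At 24 h and 3 d the lesions lie in different sets of arrays and were not compared.

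Other presynaptic genes were listed by role, with values from 34 arrays unless stated. Of 5 genes that fill vesicles with transmitter, 1 was called, Slc17a6, the glutamate transporter of RGC vesicles. It fell at 7 d after IONT (-4.13 ± 0.24, SE, adjusted p = 1.7e-10), 7 d after IONC (-2.76 ± 0.24, adjusted p = 1.9e-07) and 15 d after IONT (-6.38 ± 0.29, adjusted p = 7.3e-13), and these 3 calls were also made with 35 arrays. At 3 d after IONC it was called with 34 arrays (-1.14 ± 0.24, adjusted p = 6.1e-03) and not with 35 (0.11). It is also 1 of the RGC markers above. IONC minus IONT at 7 d was 1.36 ± 0.24 for it (adjusted p = 5.3e-03 with 34 arrays and 0.098 with 35).

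Of 16 genes of the active zone and of priming, 2 were called. Doc2b, a calcium-binding protein of vesicle release, fell at 12 h after IONT (-1.50 ± 0.22, adjusted p = 6.8e-05) and at 12 h after IONC (-1.29 ± 0.24, adjusted p = 8.7e-04), with 35 arrays as well. At 48 h after IONT it was called with 34 arrays (-0.99 ± 0.22, adjusted p = 3.4e-03) and not with 35 (0.0105). Rims2, a scaffold of the active zone, was lower in IONC than in IONT at 12 h (-1.29 ± 0.26, adjusted p = 7.2e-03 with 34 arrays and 9.2e-04 with 35). Against naive at 12 h after IONC it was called with 35 arrays alone (adjusted p = 6.0e-03, and 0.046 with 34). Of 10 genes of the vesicle membrane, Dnajc5 was called lower with 34 arrays at 48 h after IONC (-0.40 ± 0.09, adjusted p = 3.2e-03, and 0.18 with 35), and with 35 arrays at 12 h after IONC (adjusted p = 7.8e-03, and 0.026 with 34). Of 10 genes of vesicle retrieval, Sh3gl2 was called lower at 3 d after IONT with 34 arrays (-0.86 ± 0.19, adjusted p = 5.0e-03) and not with 35 (0.0102). None of the 4 genes that take SNARE bundles apart was called. The shares of all genes called in these comparisons are those given above.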

How the data were processed

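Retinal RNA of 35 pools of 4 retinas was hybridized to 1 array each. Before they deposited the log2 signals, the authors processed the arrays with GCRMA, a method that corrects background, normalizes by quantiles and sums up the probes of a set. Its version was not given in the sources used here, nor was it said which arrays were normalized jointly. The number of arrays limits the precision. Of 31099 probe sets, 57 controls were left out and 31042 tested; 20826 carried 1 gene symbol. Groups came from the sample descriptions, and the naive arrays were split by the rule that defined the gene group. A model with 1 mean per group was fitted with limma 3.58.1 (R 4.3.3) and p-values were adjusted over all probe sets (Benjamini-Hochberg). The thresholds are those of the study's methods. Named were the members called in any comparison and a fixed list of release genes. Further members outside both were described after their values were seen. Members, lists and tests were chosen with earlier results of these data known. The fit was tested on simulated data. Alternatives were other thresholds, a filter that kept probe sets whose signal passed 4 on 2 or more arrays, all 5 naive arrays as reference, separate fits, a variance trend, array weights, a replicate block, median centring, cyclic loess, averaging all probe sets of a gene and each array left out.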

Additional observations from a re-analysis of the deposited data

Results flagged for a closer look

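In the 5 naive arrays, 1 value stood apart from the others in 2 members with low signals. This check pooled both sets of naive arrays, although their levels cannot be compared. For Stx1a, naive D at 3.02 lay below the other 4 (3.67 to 3.70), and its gap to the nearest made up 0.950 of the whole range, above the limit of 0.71 for 5 values. Naive D belongs to the second set, and naive E of that set read 3.67. For Stx11, the highest of 5 values between 2.19 and 2.22 made up 0.721 of a range that is itself very small. Chance alone gives about 5% of groups such a gap. The effect of the lesions at 12 h differed for Stx11: IONC minus IONT was 0.577 on the log2 scale with 35 arrays (adjusted p = 5.6e-05, limma).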

How the results depend on the processing

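Counts of called members with 35 arrays are given by setting. At an adjusted p under 0.05 without B they were 1 at 48 h and 15 d after IONT and 7 d after IONC, 8 at 12 h after IONC and 4 for IONC minus IONT at 12 h. With array weights they were 3 at 12 h and 48 h, 7 at 7 d and 1 at 15 d after IONT, 15, 1, 3, 2 and 3 at the IONC times in order, 6 for the IONT mean of 12 h, 48 h and 7 d, 5 for the IONC mean, and 8, 1 and 1 for IONC minus IONT at 12 h, 48 h and 7 d. With all 5 naive arrays as reference they were 6 at 12 h and 1 at 7 d after IONC, 1 for the IONT mean of 12 h, 48 h and 7 d and 2 for the IONC mean. Cyclic loess gave 2 at 7 d and 1 at 15 d after IONT, 2 at 12 h (neither of them among the 3 called), 1 at 48 h and 2 at 7 d after IONC, and 0 for IONC minus IONT at 12 h. Median centring moved the members' median change to -0.14 at 24 h, -0.16 at 3 d and -0.16 at 15 d after IONT, and gave 3 at 15 d after IONT and 2 for IONC minus IONT at 12 h. The filter on low signals gave 0 and the separate fits 1 at 12 h after IONC. For IONC minus IONT at 12 h, a change of at least 1.5-fold gave 0, a variance trend with robust moderation 2 and the replicate block 2. Replicate numbers share no origin in the labels, and deviations of equally numbered arrays correlated between -0.39 and 0.34, so they were not taken as pairs; the replicate block left the count at 3 at 12 h after IONC. Leaving out 1 array gave 0 to 1 at 12 h and 48 h, 0 to 2 at 7 d and 0 to 2 at 15 d after IONT. After IONC it gave 1 to 8 at 12 h (8 without replicate 3), 0 to 1 at 24 h and 48 h and 0 to 2 at 7 d, for the IONC mean 0 to 2, and for IONC minus IONT at 12 h 1 to 5. The causes were not tested. Stx11 has no value under the low-signal filter, and cyclic loess ended its call at 12 h after IONC with 35 arrays (0.38, adjusted p = 0.053) but not with 34. With 34 arrays the calls of Cplx1 at 7 d after IONT, Vamp1 at 7 d after IONC and Snap23 at 24 h after IONC held in all 46 alternatives. With 34 arrays the counts were up to 9 (7 d after IONT, adjusted p under 0.05 without B, against 2), and 7 at 12 h after IONC (against 1). Array weights gave 7 at 7 d after IONT and 5 at 12 h after IONC, and median centring 7 at 15 d after IONT (against 2). Separate fits (adjusted p = 0.093) and array weights (0.018) ended the call of Cplx1 at 15 d after IONT. All 5 naive arrays as reference, separate fits (adjusted p = 0.11), cyclic loess (0.021) and a limit of 1.5-fold ended that of Snap25 at 15 d after IONT. All 5 naive arrays (adjusted p = 0.24) and a limit of 1.5-fold ended that of Cplx3 at 12 h after IONT, and the limit that of Snap23 at 48 h after IONT. Averaging all probe sets of a gene ended those of Vamp1 at 7 d after IONT (B not above 0), Cplx1 at 15 d after IONT (adjusted p = 0.052) and Cplx1 at 7 d after IONC (0.035). No result changed direction under an alternative that gave a value.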
